A study of Mus musculus with 24 samples.

Results

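The 10 genes described here are germline genes, which work in egg and sperm precursors and are normally silent in brain: Sycp3, Sycp1, Hormad1, Dazl, Ddx4, Mael, Tdrd1, Stk31, Tex101 and Slc25a31. They are 10 of the 19937 genes represented on the arrays by a probe set with a single gene symbol, and where a gene had more than 1 such probe set, as Hormad1 did, the brightest over all arrays was taken. Sycp3 and Slc25a31 were chosen because they differed between the strains at 26 weeks, so that difference is described for them without a test. So is every other comparison of the pair that uses the 26-week mice. The other 8 were listed beside them as germline genes, with earlier results of these data known. Whether their own values were in view was not recorded, and tests of the 8 carry that limit. The question was whether Sycp3 and Slc25a31 move alone or with the other 8.

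Whole hypothalamus was taken at the daily peak of blood pressure from 24 male mice, each on an array of its own (Affymetrix Mouse Gene 1.0 ST). The groups were hypertensive BPH/2J at 26 weeks, normotensive BPN/3J at 26 weeks, BPH/2J at 6 weeks and BPN/3J at 6 weeks, with n = 6 mice each. BPH/2J and BPN/3J are inbred strains, so blood pressure and the other differences between their genomes cannot be told apart. BPN/2J, a spelling found in the series' design text, was taken to mean BPN/3J as on the samples. All values are deposited RMA values on the log2 scale, and the arrays, not a read depth, limit the precision.

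Germ cells make the synaptonemal complex, a protein ladder that holds paired chromosomes together in meiosis, and small piRNAs that keep transposons silent. The genes for these machines are shut in body cells by DNA methylation and by repressor complexes that bind short promoter elements, among them the E-box of MGA and MAX and the site of E2F6. In mice that lack such repression, sets of germline genes are known to be switched on in body tissues.

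To show what their control regions have in common, the 250 bases before the start site are printed for the 3 genes that turned out higher in BPH/2J (Sycp3, Slc25a31, Ddx4) and for Hormad1, which holds both elements looked for and did not pass the test. Sequences are from RefSeq, build GRCm38.p6, 5′ to 3′ on the gene's strand, and so show the genome assembly and not the BPH/2J or BPN/3J genomes. Capitals mark CACGTG (the E-box, the same on both strands) and TTCCCGC or its reverse complement GCGGGAA (an E2F-type site).
Sycp3, chr10:88459337-88459586, plus strand: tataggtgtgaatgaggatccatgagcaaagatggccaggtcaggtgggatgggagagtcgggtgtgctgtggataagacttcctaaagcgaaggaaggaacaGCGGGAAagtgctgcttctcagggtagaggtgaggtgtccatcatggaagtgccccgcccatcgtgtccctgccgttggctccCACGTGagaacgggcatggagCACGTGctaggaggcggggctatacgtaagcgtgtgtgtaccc
Slc25a31, chr3:40708621-40708870, plus strand: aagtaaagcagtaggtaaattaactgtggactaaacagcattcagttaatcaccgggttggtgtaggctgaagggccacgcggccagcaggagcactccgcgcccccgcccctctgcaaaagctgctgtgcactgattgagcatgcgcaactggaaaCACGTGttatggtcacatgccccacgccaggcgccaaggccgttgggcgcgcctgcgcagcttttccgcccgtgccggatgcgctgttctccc
Ddx4, chr13:112652311-112652560, minus strand: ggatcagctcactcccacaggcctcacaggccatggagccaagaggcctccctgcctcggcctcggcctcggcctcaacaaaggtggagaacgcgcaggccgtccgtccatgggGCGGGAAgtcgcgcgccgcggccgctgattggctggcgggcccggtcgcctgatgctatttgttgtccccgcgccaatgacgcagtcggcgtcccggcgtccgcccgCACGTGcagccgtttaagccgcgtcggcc
Hormad1, chr3:95559427-95559676, plus strand: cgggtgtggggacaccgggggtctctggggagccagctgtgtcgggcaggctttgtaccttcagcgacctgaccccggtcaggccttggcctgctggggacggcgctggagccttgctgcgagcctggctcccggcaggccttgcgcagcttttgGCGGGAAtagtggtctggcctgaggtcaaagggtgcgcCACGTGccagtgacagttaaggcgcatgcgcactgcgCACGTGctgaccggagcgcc
CACGTG was found before at least 1 start site of 8 of the 10 genes, all but Dazl and Tex101, against 6.02% of 32851 promoter windows of this length. The E2F-type site was found for Sycp3, Hormad1 and Ddx4, against 3.82% of windows, and each of these also held CACGTG, against 0.338% of windows with both. The 2 motifs do not overlap in the sequences shown. CpG pairs, the sites of DNA methylation, numbered 12 before Sycp3, 18 before Slc25a31, 31 before Ddx4 and 19 before Hormad1, where the median window had 6. Genes were counted over all their start sites, whereas each window was counted by itself. The windows were not matched for CpG pairs, so the counts and shares are unlike measures. The elements were thus present both in genes that differed between the strains and in genes that did not pass.

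Of the 10 genes, Sycp3, Slc25a31 and Ddx4 stood higher in BPH/2J than in BPN/3J at both ages. Ddx4, the germ cell RNA helicase known as Vasa in flies, was the gene among the other 8 that moved with the pair. It was singled out after its values were seen. At 26 weeks Ddx4 was higher by 1.46 ± 0.13 log2 units (SE, n = 6 per group) and at 6 weeks by 0.67 ± 0.13, and it passed the test over all genes at both ages (limma adjusted p = 1.63e-08 and 0.00132), as higher in BPH/2J at both ages, which 0.722% of all genes did. With the mean of thalamus markers as a covariate the 6-week difference stayed at 0.67 and did not pass (limma adjusted p = 0.155).

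**Figure D1:**
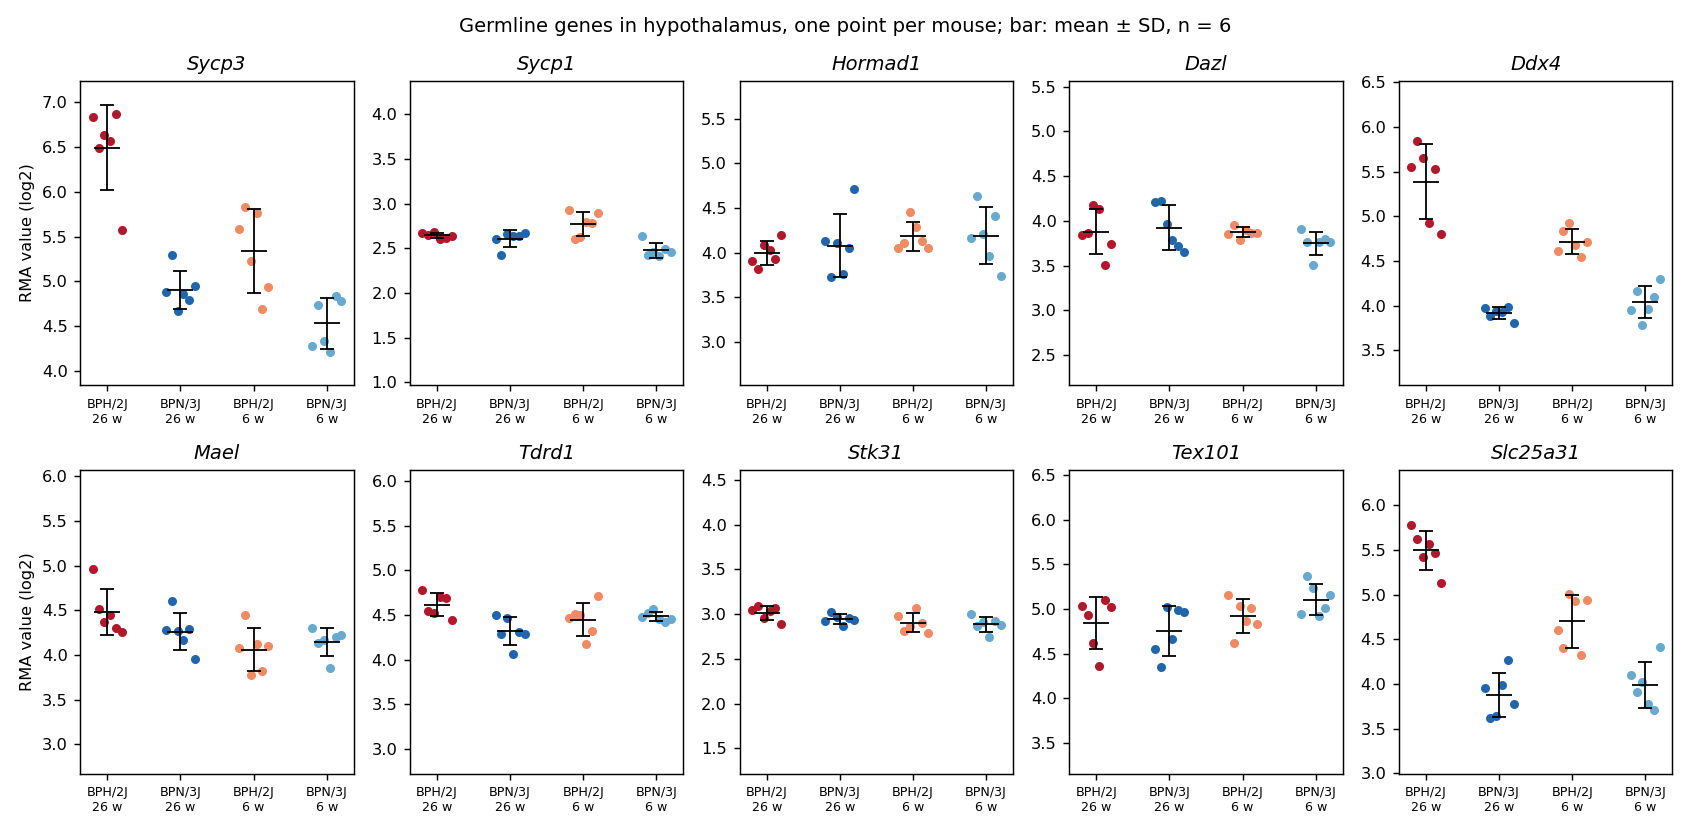
RMA values (log2, y axis) of the 10 germline genes in the 4 groups (x axis), 1 point per mouse, with mean and SD as bars; every panel spans the same number of log2 units. Sycp3, Ddx4 and Slc25a31 are highest in 26-week BPH/2J, with medians of 6.60, 5.54 and 5.51, and in the other 7 panels the group means differ by less than 0.5.

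Before the values it helps to know how dim these genes were. For scale, each array's median over the 11799 probe sets without a gene name lay between 4.60 and 5.25, with 26-week BPN/3J replicate 6 at 5.25 and the other 23 arrays at 4.85 or less. Some of those probe sets may match transcripts, so the median is a scale and not a blank. Sycp1, Hormad1, Dazl and Stk31 lay above their array's median on 0 of 24 arrays, Mael on 1 and Tdrd1 on 2. Ddx4 lay above it on 8 arrays, all of them BPH/2J, Slc25a31 on 9, all BPH/2J, Sycp3 on 16 and Tex101 on 17. Most of these genes thus lay below that median on most arrays. Since the median is not a blank, this does not show that they are silent.

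Sycp3 encodes a core protein of the axial elements of meiotic chromosomes. At 26 weeks its lowest, median and highest values were 5.57, 6.60 and 6.86 in BPH/2J, against 4.67, 4.87 and 5.30 in BPN/3J. No BPN/3J mouse reached the lowest BPH/2J mouse. The means differed by 1.59 ± 0.20 log2 units (SE, n = 6 per group), or 3.01-fold, which is the difference the gene was chosen for. With values below the median of unnamed probe sets raised to that median, the difference was 1.51, for which no SE was computed.

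At 6 weeks Sycp3 ranged from 4.68 through a median of 5.41 to 5.83 in BPH/2J, against 4.21, 4.53 and 4.83 in BPN/3J. The ranges overlapped slightly, since the lowest BPH/2J mouse lay below the highest BPN/3J mouse. In these mice, separate from those that chose the gene, the difference of 0.81 ± 0.20 (1.75-fold) passed (limma adjusted p = 0.00973), and a two-sided exact permutation test of the 6 against 6 arrays gave p = 0.00866, where 0.00216 is the smallest it can give. With the mean of thalamus markers as a covariate, added after the data were seen, it was 0.96 and did not pass (limma adjusted p = 0.208). With values raised to the median of unnamed probe sets the difference was 0.61.

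Slc25a31 encodes ANT4, the mitochondrial ADP/ATP carrier that male germ cells use in meiosis. At 26 weeks it stood at 5.13, 5.51 and 5.77 in BPH/2J (lowest, median, highest), against 3.62, 3.87 and 4.27 in BPN/3J. The groups were fully apart. The difference that chose it was 1.62 ± 0.14 log2 units, or 3.07-fold. It was 0.66 when the BPN/3J values, all below the median of unnamed probe sets, were raised to that median.

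At 6 weeks Slc25a31 stood at 4.33, 4.77 and 5.01 in BPH/2J, against 3.71, 3.96 and 4.41 in BPN/3J. The 2 groups overlapped at the edge. The difference was 0.71 ± 0.14 (1.64-fold) and passed (limma adjusted p = 0.00129, exact two-sided permutation p = 0.00649). With the thalamus covariate it was 0.38 and did not pass (limma adjusted p = 0.692). With values raised to the median of unnamed probe sets the difference was 0.14. The carriers of body cells from the same family, Slc25a4 and Slc25a5, differed by -0.01 ± 0.05 and 0.04 ± 0.08 at 26 weeks and by -0.05 ± 0.05 and -0.14 ± 0.08 at 6 weeks, and neither passed at either age (limma adjusted p from 0.371 to 0.969).

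Ddx4, the third of these genes, stood at 4.80, 5.54 and 5.84 in 26-week BPH/2J, against 3.81, 3.94 and 3.99 in 26-week BPN/3J. At 6 weeks it stood at 4.54, 4.70 and 4.93 in BPH/2J, against 3.79, 4.03 and 4.29 in BPN/3J. Each BPH/2J mouse was above each BPN/3J mouse of its age. Over all genes, such separation with BPH/2J higher was seen in 0.863% at 26 weeks and 2.66% at 6 weeks, and in either direction in 1.75% and 5.44%. The differences correspond to 2.76-fold and 1.60-fold. All BPN/3J values lay below the median of unnamed probe sets, and with values raised to it the differences were 0.55 and 0.10 log2 units.

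Bulk tissue cannot tell more RNA per cell from more cells that hold it, here or in any result below.

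**Figure D2:**
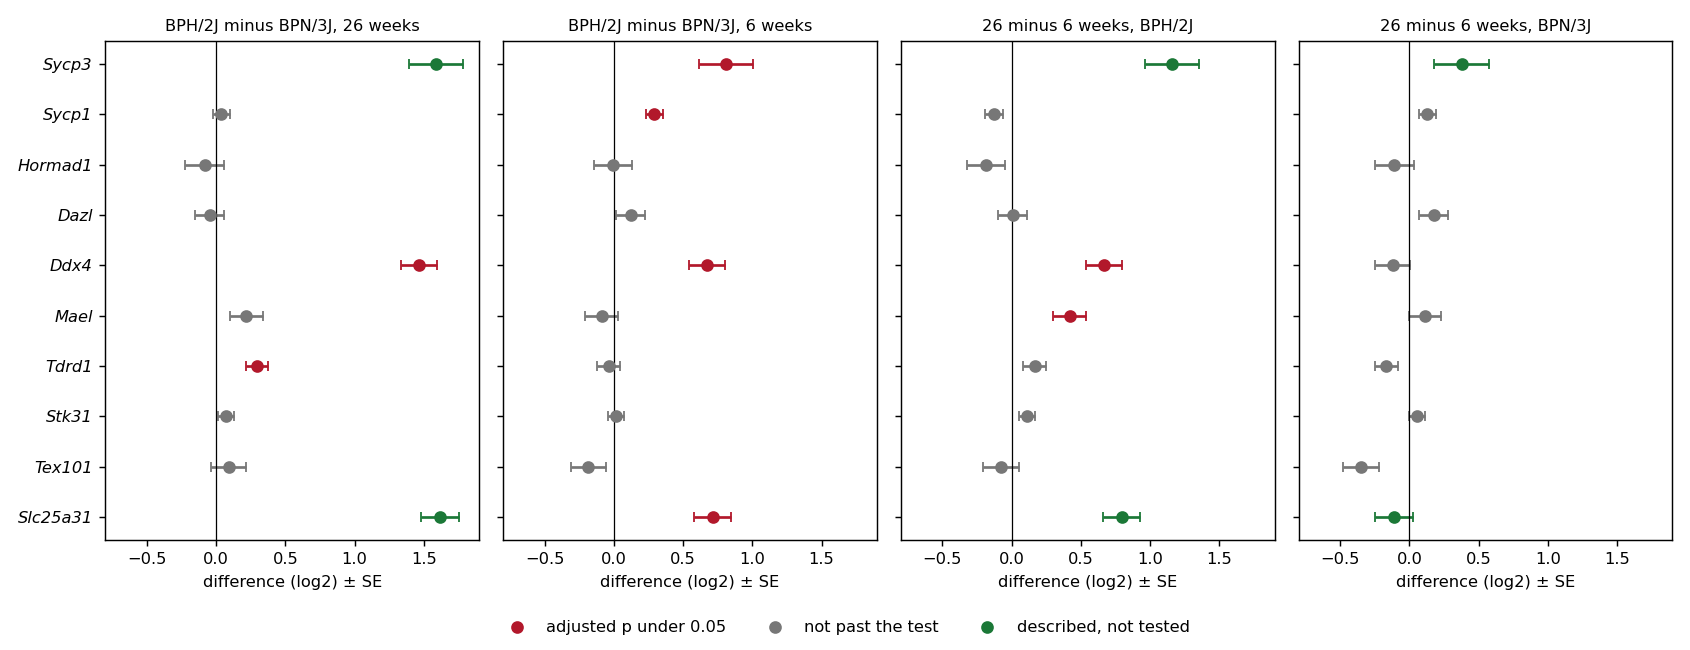
Difference of group means (log2, x axis) with SE for each of the 10 genes in 4 comparisons. Red points passed limma's test over all genes, grey points did not, and green points belong to the pair chosen by its 26-week values and were not tested; Ddx4 is red in the first 3 comparisons, at 1.46, 0.67 and 0.67.

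Sycp1 and Hormad1, the other genes of the 10 whose proteins belong to the synaptonemal complex or chromosome axis, did not pass at 26 weeks. Sycp1, the transverse filament that ties the axes together, stood at 2.60, 2.65 and 2.68 in BPH/2J, against 2.43, 2.64 and 2.67 in BPN/3J (0.04 ± 0.06). Hormad1, a HORMA-domain protein of unpaired axes, averaged 4.00 ± 0.14 in BPH/2J and 4.08 ± 0.35 in BPN/3J (SD, n = 6 each). At 6 weeks Sycp1 was higher by 0.29 ± 0.06 (limma adjusted p = 0.00299), with values of 2.61, 2.78 and 2.93 in BPH/2J, against 2.41, 2.46 and 2.64 in BPN/3J. Both groups lay far below the median of unnamed probe sets, so no fold is given for Sycp1. With the thalamus covariate it was 0.21 and did not pass (limma adjusted p = 0.533). Hormad1 differed by -0.01 ± 0.14 at 6 weeks.

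Among the other RNA and piRNA genes, Tdrd1 and Mael passed in 1 of the 5 comparisons each, and Dazl and Stk31 in none. Tdrd1, a tudor protein that binds Piwi proteins, stood at 4.45, 4.62 and 4.78 in 26-week BPH/2J, against 4.07, 4.30 and 4.50 in BPN/3J. It was higher by 0.29 ± 0.08 and only just passed (limma adjusted p = 0.0487). The call was lost with the replicate number as a block over all arrays (adjusted p = 0.0526) and kept with that block at 26 weeks alone (adjusted p = 0.0300). It passed without 26-week BPH/2J replicate 3 or 6, 26-week BPN/3J replicate 1 or 3, or 6-week BPH/2J replicate 4 or 6, and was lost without any of the other 18 arrays (highest adjusted p 0.140). At 6 weeks Tdrd1 differed by -0.04 ± 0.08.

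Mael, the Maelstrom protein of piRNA-guided silencing, differed by 0.22 ± 0.12 at 26 weeks and by -0.09 ± 0.12 at 6 weeks. Dazl, an RNA-binding protein that promotes translation in germ cells, differed by -0.05 ± 0.10 and 0.12 ± 0.10. Stk31, a tudor-domain kinase of germ cells, differed by 0.07 ± 0.06 and 0.02 ± 0.06. Tex101, a surface glycoprotein of male germ cells, averaged 4.85 ± 0.29 in BPH/2J and 4.76 ± 0.28 in BPN/3J at 26 weeks, and 4.92 ± 0.19 and 5.11 ± 0.18 in BPH/2J and BPN/3J at 6 weeks (SD, n = 6 each). None of these strain differences passed.

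Counted over the 8 genes other than the chosen pair, Ddx4 and Tdrd1 (2 genes) passed as higher and 0 as lower at 26 weeks, where 1.32% of all genes were called higher and 1.34% lower. At 6 weeks Ddx4 and Sycp1 (2 genes) passed as higher and 0 as lower, where 2.99% were called higher and 4.42% lower. With Sycp3 and Slc25a31, 4 of the 10 were called higher at 6 weeks. That count holds the 2 genes chosen for their 26-week strain difference, so it is not set against the share of all genes. Sycp1, another of the 4, lay above its array's median of unnamed probe sets on 0 of 24 arrays. The median difference of the 8 was 0.08 at 26 weeks and 0.00 at 6 weeks, against 0.01 at both ages over all 19937 genes.

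Age was compared within each strain. In BPH/2J, Ddx4 was higher at 26 than at 6 weeks by 0.67 ± 0.13 (limma adjusted p = 0.00135), and 8.23% of all genes were called higher in this comparison. In the same comparison 10 of 13 thalamus markers were called higher, with a median difference of 0.92. With their mean as a covariate Ddx4 stayed at 0.67 and did not pass (limma adjusted p = 0.266). Sycp3 was higher by 1.16 ± 0.20 and Slc25a31 by 0.79 ± 0.14, both described without a test. For Slc25a31 each 26-week BPH/2J mouse was above each 6-week one, while for Sycp3 and Ddx4 the ages overlapped. Over all genes the ages were apart in BPH/2J with 26 weeks higher in 1.47% and in either direction in 4.05%. Mael was higher by 0.42 ± 0.12 (limma adjusted p = 0.0172), with 4.26, 4.41 and 4.97 at 26 weeks, against 3.78, 4.09 and 4.44 at 6 weeks. The Mael call was lost without 26-week BPH/2J replicate 1 (0.32, adjusted p = 0.0532) or 6-week BPH/2J replicate 3 (0.36, adjusted p = 0.0515). So 2 of the 8 other genes were called, both higher at 26 weeks.

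In BPN/3J none of the 8 genes tested passed between the ages. Ddx4 differed by -0.12 ± 0.13 between 26 and 6 weeks, and Slc25a31 by -0.11 ± 0.14 and Sycp3 by 0.38 ± 0.20, the chosen pair without a test. The ages overlapped for all 10 genes, where 1.25% of all genes were apart with 26 weeks higher and 4.57% in either direction. Tex101 differed by -0.35 ± 0.13 and missed the threshold (limma adjusted p = 0.0707). It passed with the replicate number as a block at 26 weeks (adjusted p = 0.0320), with a term for the 26-week array sets described below (0.0274), with array weights (0.00862), and without 26-week BPN/3J replicate 5 (-0.40) or 6 (-0.39) or 26-week BPH/2J replicate 4 (-0.35), with adjusted p from 0.0374 to 0.0475. With limma, 0 of the 8 other genes were called in BPN/3J, and 2 had an unadjusted p below 0.05, where 4.6% of all genes were called higher and 7.66% lower.

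Whether the strain difference itself depended on age was tested as an interaction. For Ddx4 the difference was more positive at 26 than at 6 weeks by 0.79 ± 0.18, which missed the threshold (limma adjusted p = 0.0716). For Slc25a31 this change was 0.91 ± 0.19 and for Sycp3 0.78 ± 0.28, neither tested. The Ddx4 interaction passed with a term for 2 sets of 26-week arrays described below (adjusted p = 0.0332), with the replicate number as a block at 26 weeks (0.0350), with array weights (0.00885), and without 26-week BPH/2J replicate 6 or 6-week BPH/2J replicate 2 (0.0186 at the lowest). With the thalamus covariate the Ddx4 interaction stayed at 0.79 and did not pass (limma adjusted p = 0.9996), in a fit that called 0 of all genes. By limma 0 of the 8 other genes were called, 3 had an unadjusted p below 0.05, and 0.0301% of all genes were called, 0.00502% with a more positive and 0.0251% with a more negative difference at 26 weeks.

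**Figure D3:**
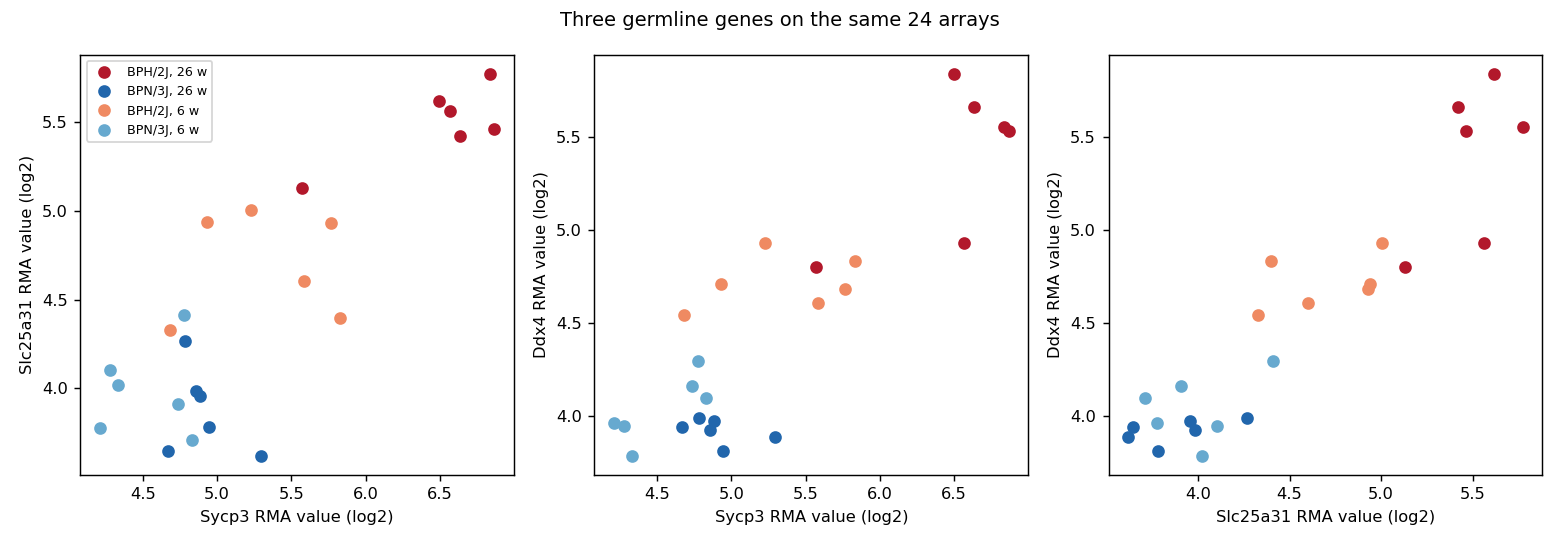
Values (log2) of Sycp3, Slc25a31 and Ddx4 plotted against each other, 1 point per array, coloured by group. Most 26-week BPH/2J arrays lie at the upper right and most 6-week BPH/2J arrays between them and BPN/3J. The 12 BPN/3J arrays lie at the lower left, where Ddx4 is at most 4.29. 6-week BPH/2J replicate 5 lies within the BPN/3J ranges of Sycp3 (4.68) and Slc25a31 (4.33). 26-week BPH/2J replicate 6 (Sycp3 5.57, Ddx4 4.80) lies below and left of 6-week BPH/2J replicate 2 (5.83, 4.83).

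Over the 24 arrays Ddx4 was the gene most like Slc25a31 of all 19936 others, with r = 0.927, and ranked 2 for Sycp3, with r = 0.883. Sycp3 and Slc25a31 correlated at r = 0.847, rank 7 from the side of Sycp3 and rank 16 from that of Slc25a31. These values describe the shared steps between groups and carry no test. The gene most like Sycp3 was Pcdhb9, a clustered protocadherin (r = 0.888), followed after Ddx4 by Nudt19 (0.864), Slco1a4 (0.860) and Nbas (0.856). After Ddx4, Slc25a31 was most like C330024D21Rik (0.895), Nudt19 (0.893), Coq7 (0.892) and Armcx1 (0.890). The remaining germline genes were less alike, from 0.595 for Stk31 to -0.269 for Tex101 against Sycp3, and from 0.543 for Tdrd1 to -0.236 for Hormad1 against Slc25a31.

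Within BPH/2J groups the mouse-to-mouse relation was weaker and none passed. At 26 weeks Sycp3 and Slc25a31 had r = 0.803 and rho = 0.314 (exact permutation p = 0.144 and 0.564; n = 6), Sycp3 and Ddx4 r = 0.657 and rho = 0.200 (exact p = 0.219 and 0.714), and Slc25a31 and Ddx4 r = 0.571 and rho = 0.486 (exact p = 0.294 and 0.356). At 6 weeks the same pairs, in the same order, had r = 0.0542, 0.331 and 0.447 and rho = -0.0286, 0.371 and 0.657 (exact p from 0.175 to 1.0). The smallest adjusted p over the 6 relations was 0.525 for r and 0.846 for rho. Without the 2 mice farthest from the median, r was 0.549, 0.0145 and -0.0797 at 26 weeks and -0.628, -0.485 and 0.733 at 6 weeks, so the values rest on few mice.

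A wider set of 101 germline genes in 5 lists, of which 97 were measured, was examined beside the 10. At 26 weeks 1 gene of these passed upward and 2 downward (3.09% of 97, against 2.67% of all genes), with a median difference of 0.03. At 6 weeks 2 passed upward and 3 downward (5.15%, against 7.42%), with a median of 0.02. The share called was thus near that of all genes at both ages. At 26 weeks the 97 genes lay between -0.71 and 0.53, below the differences of Sycp3, Slc25a31 and Ddx4.

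In the wider meiosis list, 1 of 25 genes was higher and 1 lower at each age, where 2.67% of all genes were called at 26 weeks and 7.42% at 6 weeks. Rad21l, a cohesin subunit of meiotic chromosomes, was higher by 0.52 ± 0.12 at 26 weeks (limma adjusted p = 0.0163) and 0.40 ± 0.12 at 6 weeks (adjusted p = 0.0478). Its means were 4.55 in BPH/2J and 4.02 in BPN/3J at 26 weeks, and 4.25 and 3.85 in BPH/2J and BPN/3J at 6 weeks. Tex15, a germ cell protein needed for meiotic recombination and transposon silencing, was lower, with differences of -0.71 ± 0.13 and -0.62 ± 0.13 (limma adjusted p = 0.000786 and 0.00202). The strains did not overlap, as in 1.75% of all genes at 26 weeks and 5.44% at 6 weeks. Tex15 means in BPH/2J and BPN/3J were 3.86 and 4.56 at 26 weeks and 3.87 and 4.49 at 6 weeks. All group means of Rad21l and Tex15 lay below 4.60, the lowest array median of unnamed probe sets.

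In the piRNA list, Henmt1, the enzyme that methylates the ends of piRNAs, was lower, at -0.64 ± 0.12 at 26 weeks and -0.58 ± 0.12 at 6 weeks (adjusted p = 0.00100 and 0.00189). At 6 weeks Pld6, a mitochondrial protein of piRNA making, was higher by 0.29 ± 0.07 (limma adjusted p = 0.0119). The helicase gene Ddx25 was lower at that age, at -0.21 ± 0.06 (limma adjusted p = 0.0390). Group means of 6.79 to 7.28 for Pld6 and 9.16 to 9.47 for Ddx25 lay above every array's median of unnamed probe sets. The other 18 genes of 19 did not pass at 26 weeks, nor the other 16 at 6 weeks, where 2.67% and 7.42% of all genes were called. Lists of germ cell factors (18 measured), testis and sperm genes (24) and oocyte genes (11) had 0 called by limma at either age. At an unadjusted p below 0.05 were 3, 1 and 1 genes at 26 weeks and 2, 0 and 1 at 6 weeks. The shares of all genes called leave few or none in lists of this size.

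**Figure D4:**
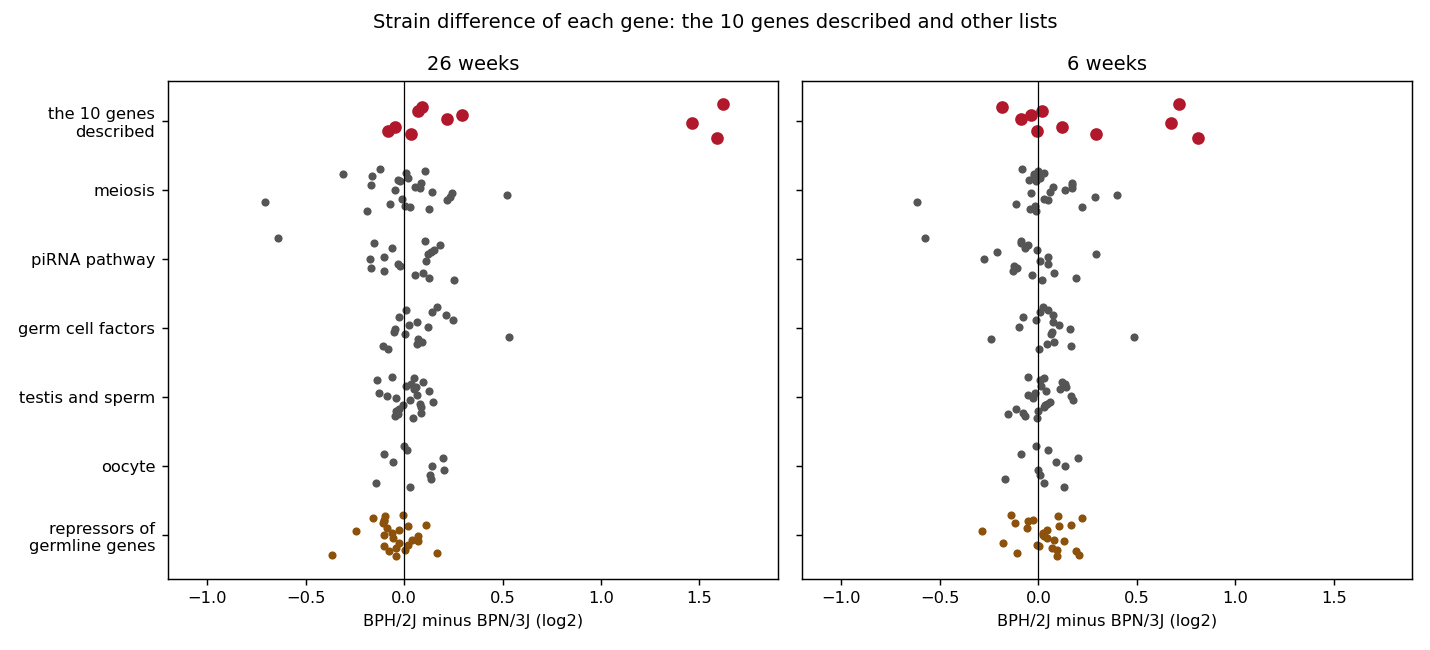
Strain difference (BPH/2J minus BPN/3J, log2, x axis) at 26 and at 6 weeks for the 10 genes described (red), 5 wider germline lists (grey) and the repressor list (brown), 1 point per gene. The repressor list holds repressors of germline genes and also Tet1, Tet2 and Tet3. At 26 weeks Sycp3, Slc25a31 and Ddx4 lie at 1.46 to 1.62, and every other point lies between -0.71 and 0.53.

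Repressors of germline genes were examined as a list of 27, of which 26 were measured. The list also holds Tet1, Tet2 and Tet3, genes of enzymes that oxidise methylated DNA, so not every member is a repressor. By limma 0 of 26 were called at 26 weeks, 3 had an unadjusted p below 0.05, and the median difference was -0.05, where 2.67% of all genes were called. At 6 weeks Yaf2, a subunit of Polycomb repressive complexes, was lower, at -0.18 ± 0.06 (limma adjusted p = 0.0479) and the other 25 did not pass, where 7.42% of all genes were called. Between 26 and 6 weeks in BPH/2J, 2 were higher and 5 lower, where 8.23% of all genes were called higher and 8.64% lower. The lower ones included Trim28, a corepressor of KRAB zinc finger proteins (-0.29 ± 0.06), the DNA methyltransferase Dnmt3a (-0.29 ± 0.07) and its cofactor gene Dnmt3l (-0.37 ± 0.11). The Dnmt3l means, 4.29 at 26 and 4.65 at 6 weeks, lay below the median of unnamed probe sets on those arrays. The higher ones were Mbd2, a reader of methylated DNA (0.32 ± 0.06), and L3mbtl2 (0.24 ± 0.07). In BPN/3J 2 were higher and 1 lower, with Trim28 at -0.24 ± 0.06, Tet2, which oxidises methylated DNA, at 0.46 ± 0.12, and Mga, the partner of MAX at the E-box, at 0.35 ± 0.10. These shares, 7 of 26 and 3 of 26, stand beside 16.9% and 12.3% of all genes called in the same comparisons.

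The chromosomal neighbours of the 3 genes were read in RefSeq gene order, 5 measured genes on either side, to see whether genes beside them differed too. Around Sycp3 on chromosome 10, 0 of 10 neighbours were called at either age, where 2.67% of all genes were called at 26 weeks and 7.42% at 6 weeks, a share that leaves few or none of 10, and they differed by at most 0.16 in size at 26 weeks. The nearest, Dram1 and Gnptab before it and Chpt1 and Mybpc1 after it, stood at 0.11 ± 0.09, 0.03 ± 0.05, -0.04 ± 0.09 and -0.07 ± 0.11 at 26 weeks. Around Slc25a31 on chromosome 3, 0 of 10 were called at 26 weeks and 1 at 6 weeks, the adjoining Hspa4l, which was lower, at -0.23 ± 0.05 (limma adjusted p = 0.00652). 1700017G19Rik and Intu before it and Plk4 beyond Hspa4l stood at 0.06 ± 0.09, 0.08 ± 0.08 and 0.06 ± 0.07 at 26 weeks.

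Around Ddx4 on chromosome 13, a neighbourhood examined after its values were seen, 1 of 10 was called at 26 weeks and 2 at 6 weeks, where 2.67% and 7.42% of all genes were called. Slc38a9, the adjoining lysosomal amino acid transporter gene, was higher by 0.29 ± 0.06 at 26 weeks (limma adjusted p = 0.00961) and 0.32 ± 0.06 at 6 weeks (adjusted p = 0.00195). Ankrd55 was higher by 0.48 ± 0.09 at 6 weeks (adjusted p = 0.00169) and stood at 0.33 ± 0.09 at 26 weeks (adjusted p = 0.0579). Neither reached the size of the Ddx4 difference at its age. The 3 genes lie on 3 chromosomes.

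**Figure D5:**
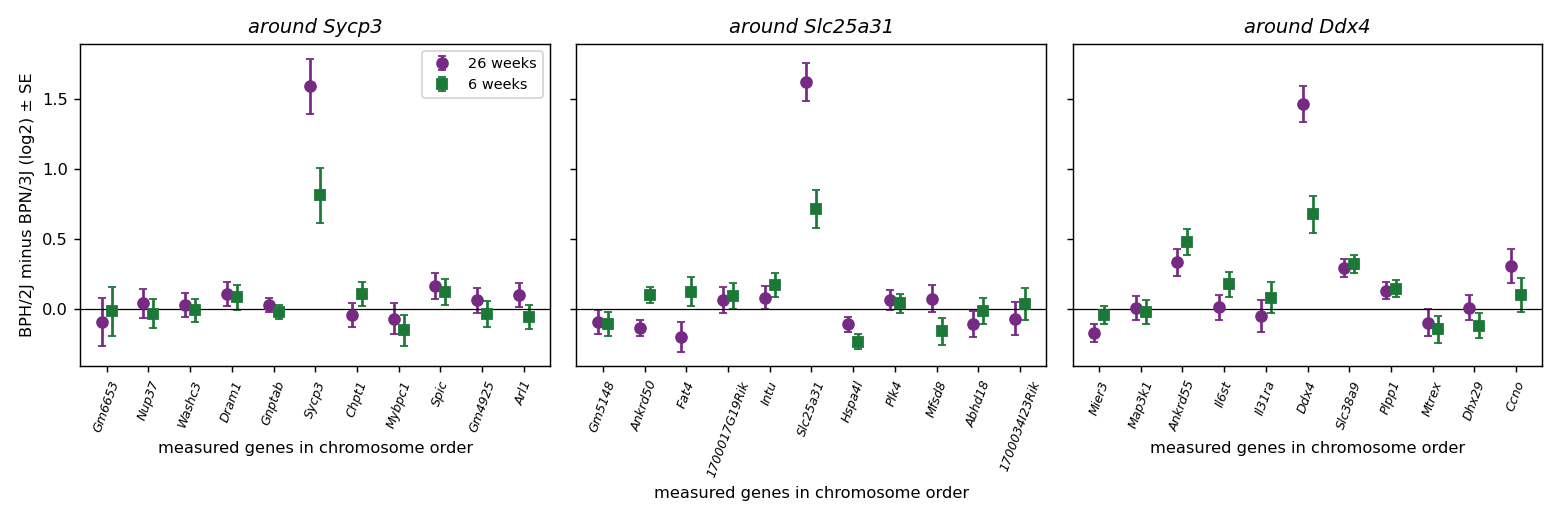
Strain difference (BPH/2J minus BPN/3J, log2, y axis) with SE at 26 weeks (circles) and 6 weeks (squares) for Sycp3, Slc25a31 and Ddx4 and 5 measured genes on each side in chromosome order (x axis). The named gene stands alone above 1 at 26 weeks in each panel, and beside Ddx4 the genes Ankrd55 and Slc38a9 lie at 0.33 and 0.29.

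Markers of other tissues and cell types differed between some groups, and their part in these results was not tested beyond the values given here. All 9 measured hypothalamic markers, such as Avp and Oxt, were above the level of unnamed probe sets in every group. Their mean per array ranged from 7.86 to 8.77 in BPH/2J and 7.35 to 8.60 in BPN/3J at 26 weeks, and from 8.29 to 9.21 in BPH/2J and 7.65 to 8.61 in BPN/3J at 6 weeks. The median strain difference of the 9 was 0.41 at 26 weeks and 0.70 at 6 weeks, with 8 of 9 above 0 at each age. The orexin gene Hcrt was called higher in BPH/2J at 26 weeks (1.19 ± 0.29, limma adjusted p = 0.0212), and at 6 weeks Hcrt (1.00 ± 0.29), Pmch (0.70 ± 0.15) and Pomc (1.54 ± 0.36) were, 1 and 3 of 9 against 1.32% and 2.99% of all genes. Avp and Oxt stood at 1.17 and 1.14 at 26 weeks and did not pass. Thalamus markers, 13 of 13 above that level, had a mean of 7.75 to 9.24 per array in 6-week BPH/2J, against 9.21 to 9.53 in 6-week BPN/3J, with 10 of 13 called lower, against 4.42% of all genes. At 26 weeks the means were 9.22 to 9.44 in BPH/2J and 8.84 to 9.54 in BPN/3J. On 6-week BPH/2J replicate 2, whose thalamus mean of 9.24 lay in the BPN/3J range, Sycp3 stood at 5.83 and Ddx4 at 4.83, both above all 6-week BPN/3J arrays, and Slc25a31 at 4.40, within their range. With the thalamus mean as a covariate 157 of 19937 genes were called at 6 weeks, against 1479 without it. At 26 weeks Ddx4 stayed at 1.46 with it and passed (limma adjusted p = 3.47e-08). Between the ages in BPH/2J it gave 0.22 for Mael, which did not pass (limma adjusted p = 0.662).

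Oligodendrocyte markers ranged from 9.50 to 10.3 per array in 6-week BPH/2J, against 9.97 to 10.6 in 6-week BPN/3J, with 5 of 11 called lower (4.42% of all genes). Their median strain difference at 6 weeks was -0.47, with 0 of 11 above 0 and 10 at an unadjusted limma p below 0.05. At that age 2 of 14 ependymal cilia markers, genes partly shared with sperm tails, were called higher (2.99% of all genes). The ependymal median was 0.25, with 13 of 14 above 0 and 9 at an unadjusted limma p below 0.05. At 26 weeks the oligodendrocyte and ependymal medians were -0.04 and 0.01. Choroid plexus and pituitary markers had 0 of 9 and 0 of 7 called by limma in the strain comparisons. At an unadjusted p below 0.05 were 2 and 0 at 26 weeks and 2 and 1 at 6 weeks. The choroid plexus median was -0.40 at 26 weeks, with 0 of 9 above 0, and 0.22 at 6 weeks, with 7 of 9 above 0. Among 26-week arrays, replicates 5 and 6 of both strains stood apart from replicates 1 to 4 on the first principal component of deviations from group means (41.9% of the variance); the labels name no batch. Within replicates 1 to 4 the strain difference was 1.71 for Sycp3, 1.79 for Slc25a31 and 1.56 for Ddx4, and within replicates 5 and 6 it was 1.35, 1.27 and 1.26. The second set holds 2 arrays per strain, and for Sycp3 and Slc25a31 these are the values that chose them.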

How the data were processed

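Hypothalamus of 24 male mice in 4 groups of 6 was measured on 24 arrays, and the titles gave each sample's group and replicate number. The deposited log2 values were made by the authors by RMA (robust multi-array average), as the submitters' processing notes record. Those notes also list limma, and no version or annotation is stated there. RMA equalises the arrays' distributions, so differences are relative to other genes. Of 34760 probe sets, 21640 had 1 gene symbol, 1321 several and 11799 none in the platform table; the brightest single-symbol probe set per gene gave 19937 genes. Values ran from 1.54 to 14.3, with array medians of 5.89 to 6.09.

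A linear model was fitted to all genes (limma 3.58.1, R 4.3.3), with a mean per group over all 24 arrays (20 residual degrees of freedom); adjusted p-values are Benjamini-Hochberg over 19937 genes within a comparison, with a threshold of 0.05. The code was tested on simulated data. Genes are named by these rules: the 10 genes always, and up to 4 called genes per list and strain comparison. The 5 most alike by Pearson correlation and the 2 nearest measured neighbours per side are named too. Exceptions are marked in the text. Genes of the repressor list called between ages and the Ddx4 neighbours were chosen after their values were seen. The genes and lists were chosen with earlier results of these data known. List genes under an older symbol were matched through RefSeq synonyms (GRCm38.p6), and unmatched ones are not analysed here.

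Duplicated arrays were looked for and not found: the closest 2 of a group differed by 0.122 per probe set on average. Deviations of same-numbered 26-week arrays of the strains correlated at 0.13 to 0.444 in all 6 pairs, and at 6 weeks at -0.232 to 0.0532. Between the ages, where the mice differ, the correlations were 0.0125 to 0.4135 in the hypertensive strain, 4 of them over a threshold of 0.1. In the normotensive strain they were -0.1039 to 0.0476. Only same-numbered arrays were compared, and the split into array sets was not removed first. The labels name no pairing, and whether the numbers pair the 26-week arrays was not tested. Alternatives were the replicate block, only the groups compared, all probe sets averaged, dim genes left out, a trended robust prior, median centring, array weights, each array left out, and, added later, the 26-week block, array sets, and thalamus covariate.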

Additional observations from a re-analysis of the deposited data

Results flagged for a closer look

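In 6 of 40 gene and group combinations 1 mouse stood apart from the other 5 by Dixon's criterion at 95%, which chance meets in about 1 in 20 groups. Sycp3 was 5.57 in 26-week BPH/2J replicate 6, against 6.49 to 6.86 in the other 5; without that mouse the strain difference was 1.77. The same array held the lowest value of its group for 6 of the 10 genes and lay at -0.46 on the first component of the 26-week arrays, the lowest of the 12; whether the array or the mouse was responsible was not tested. Mael was 4.97 in 26-week BPH/2J replicate 1, against 4.26 to 4.52 in the others, and the age call of Mael in BPH/2J was lost without it. Mael was 3.86 in 6-week BPN/3J replicate 4, against 4.14 to 4.30. Sycp1 was 2.43 in 26-week BPN/3J replicate 2, against 2.60 to 2.67, and 2.64 in 6-week BPN/3J replicate 1, against 2.41 to 2.49. Dazl was 3.51 in 6-week BPN/3J replicate 3, against 3.76 to 3.91.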

How the results depend on the processing

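The 6-week differences of Sycp3, Slc25a31 and Ddx4 and the 26-week difference of Ddx4 kept direction and call with each array left out (Sycp3 at 6 weeks 0.71 to 0.94, Slc25a31 0.65 to 0.80) and under the other alternatives run, except the thalamus covariate at 6 weeks, which gave 0.9578 for Sycp3, 0.3839 for Slc25a31 and 0.67 for Ddx4 without a call; the cause was not tested. Leaving out dim genes removed 8 of the 10, all but Sycp3 and Tex101, so 0 of the other genes were called at 26 weeks, at 6 weeks and between ages in BPH/2J. Using only the groups compared gives no interaction.

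Of the other 8 genes, the number called at 26 weeks was 1 with the replicate block, with only the groups compared, with the trended robust prior and with the thalamus covariate, since Tdrd1 was lost; with the thalamus covariate it was 0 at 6 weeks and 0 between ages in BPH/2J. For the interaction it was 2 with array weights, 1 with the array-set term and 1 with the 26-week replicate block, and between ages in BPN/3J 2, 1 and 1. With 1 array left out it was 1 to 2 at 26 weeks, 2 at 6 weeks, 0 to 1 for the interaction, 1 to 2 between ages in BPH/2J and 0 to 1 in BPN/3J.

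Over all genes, calls at 26 weeks were 248 with only the groups compared, 881 with the array-set term and 958 with the 26-week block, against 532. At 6 weeks they were 2322 with only the groups compared, 3725 with weights, 2276 with the 26-week block and 157 with the thalamus covariate, against 1479. For the interaction they were 27 with the replicate block, 23 without dim genes, 31 with the trended prior, 683 with weights, 251 with the set term, 139 with the 26-week block and 0 with the covariate, against 6. Between ages they were 7475 with weights, 5298 with the set term, 5579 with the 26-week block and 8 with the covariate in BPH/2J, against 3362, and 6416, 4777 and 5003 with the first 3 of these in BPN/3J, against 2445. With 1 array left out they ranged from 428 to 721 at 26 weeks, 1034 to 1961 at 6 weeks, 0 to 496 for the interaction (496 without 6-week BPH/2J replicate 2), 2138 to 4838 between ages in BPH/2J and 1034 to 4230 in BPN/3J.

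Values near 0 changed sign: Hormad1 at 6 weeks with weights (0.0503), and with the covariate Mael (0.1041) and Stk31 (-0.0447) at 6 weeks and Dazl (-0.0562) and Tex101 (0.1577) between ages in BPH/2J. With 1 array left out, sign changes gave ranges of -0.1079 to 0.027 for Dazl, -0.0009 to 0.0482 for Sycp1 and -0.1541 to 0.0415 for Hormad1 at 26 weeks. At 6 weeks the ranges were -0.0965 to 0.0825 for Hormad1, -0.0917 to 0.0166 for Tdrd1 and -0.0172 to 0.0402 for Stk31. They were -0.1667 to 0.0485 for the Hormad1 interaction, and -0.0531 to 0.0818 for Dazl and -0.1348 to 0.021 for Tex101 between ages in BPH/2J. None of these differences passed. Genes no brighter than unnamed probe sets limit how small a change can be read.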

Other observations

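Among all 19937 genes, 21 (0.105%) were called higher in BPH/2J at both ages and also higher at 26 than at 6 weeks in BPH/2J, Ddx4 among them; Sycp3 and Slc25a31 are counted too, and for them the 26-week condition restates how they were chosen. The list, read after the values were seen, also held Gdpd3, with strain differences of 3.66 at 26 weeks and 3.06 at 6 weeks, Nudt19 with 1.03 and 0.71, the desmosome gene Dsp with 0.83 and 0.43, Coq7, an enzyme of ubiquinone synthesis, with 0.50 and 0.22, and Pcdhb9 with 0.84 and 0.56. Between 26 and 6 weeks in BPN/3J, 4 of the 21 were called, Pcdhb9, Etnppl, Dennd10 and Ica1, at 0.49, 0.62, 0.38 and 0.25. In that comparison 4.6% of all genes were called higher and 7.66% lower. The 21 were selected by calls in these same data.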
